A study of Mus musculus with 6 samples.

Results

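*Nr4a1*, *Nr4a2*, *Nr4a3*, *Sik1*, *Per1*, *Dusp1* and *Rgs2* are early genes that cAMP switches on in many cell types. These 7 of the 55367 gene symbols listed in each library were followed through freshly isolated mouse kidney cells of 3 groups, with 2 RNA-seq libraries per group. They were chosen by symbol, and all 7 passed the filter on low values, which 14862 genes passed.

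The cells were positive for the lectin Dolichos biflorus agglutinin (DBA), which binds collecting duct epithelium, and came from male mice sampled at the same age (Day115 in the labels). WT mice (Pkd1+/+) and ADPKD mice (Pkd1-/-) carried the saline label. ADPKD+MMPP mice were Pkd1-/- mice that had received MMPP, an ultra-small melanin-like nanoparticle with chelated manganese and polyethylene glycol, by repeated intravenous injection. The knockout was made by tamoxifen in young Pkd1 fl/fl;Cre/Esr1+ mice, whose Cre is not restricted by the DBA gate, and the methods describe tamoxifen for the mice of both genotypes without separating them. The labels do not say how many animals stand behind a library, so the p-values below measure only the spread between these libraries, which may be technical.

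When cAMP rises, protein kinase A phosphorylates CREB, a transcription factor bound to cAMP response elements (CREs) in promoters, and early genes are transcribed within minutes without new protein synthesis. In collecting duct cells vasopressin is the main hormone that raises cAMP, and the cAMP pathway is known to drive cyst growth in polycystic kidney disease. Among the early genes, NR4A proteins are nuclear receptors that act as transcription factors, SIK1 is a kinase that restrains CREB coactivators, PER1 is a clock repressor, DUSP1 is a phosphatase that switches off MAP kinases, and RGS2 shortens signalling by G proteins of the Gq class.

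The 250 bases before the start site were searched for the short CRE, TGACG or its complement CGTCA, for the full CRE, TGACGTCA, and for the E-box CACGTG through which the clock acts, on both strands. These stretches are shown because short CREs are what the members with a promoter entry have in common outside the expression values. They come from RefSeq on GRCm38.p6, run 5′ to 3′ along the gene's strand, and have the short CREs in capitals. Bases inside annotated exons were left off the printed stretch, which shortened those of *Nr4a3*, *Dusp1* and *Rgs2* and took the last base from the upstream start of *Per1*. For *Sik1* no promoter entry was used.
Nr4a1 (chr15:101266596-101266845, plus strand): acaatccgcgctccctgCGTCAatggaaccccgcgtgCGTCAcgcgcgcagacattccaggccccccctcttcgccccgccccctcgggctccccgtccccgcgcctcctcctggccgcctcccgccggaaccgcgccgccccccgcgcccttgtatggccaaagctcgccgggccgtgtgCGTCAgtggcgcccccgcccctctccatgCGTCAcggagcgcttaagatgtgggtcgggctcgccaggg
Nr4a2 (chr2:57124004-57124253, minus strand): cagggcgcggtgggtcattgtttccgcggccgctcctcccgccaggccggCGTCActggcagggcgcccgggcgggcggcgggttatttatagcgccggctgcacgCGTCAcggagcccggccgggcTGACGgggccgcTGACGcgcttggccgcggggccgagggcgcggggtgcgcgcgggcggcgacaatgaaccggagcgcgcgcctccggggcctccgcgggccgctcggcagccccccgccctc
Nr4a3 (chr4:48045055-48045152, plus strand): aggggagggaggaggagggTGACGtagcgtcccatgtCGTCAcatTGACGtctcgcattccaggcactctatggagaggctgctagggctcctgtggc
Per1, upstream start (chr11:69098699-69098947, plus strand): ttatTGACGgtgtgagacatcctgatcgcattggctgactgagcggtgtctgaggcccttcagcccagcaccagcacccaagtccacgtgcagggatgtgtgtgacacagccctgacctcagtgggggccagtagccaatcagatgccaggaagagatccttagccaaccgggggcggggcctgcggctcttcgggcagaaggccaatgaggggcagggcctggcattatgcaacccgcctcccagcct
Per1, downstream start (chr11:69099902-69100151, plus strand): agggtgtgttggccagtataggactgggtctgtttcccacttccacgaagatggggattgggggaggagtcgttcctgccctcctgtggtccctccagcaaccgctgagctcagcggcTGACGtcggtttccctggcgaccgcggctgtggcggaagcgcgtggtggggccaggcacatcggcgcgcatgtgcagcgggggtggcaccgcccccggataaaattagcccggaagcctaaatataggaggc
Dusp1 (chr17:26508520-26508722, minus strand): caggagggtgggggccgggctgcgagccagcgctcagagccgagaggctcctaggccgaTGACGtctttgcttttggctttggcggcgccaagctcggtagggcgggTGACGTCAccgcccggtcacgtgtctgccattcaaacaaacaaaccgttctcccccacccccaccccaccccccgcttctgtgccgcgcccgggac
Rgs2 (chr1:144004162-144004399, minus strand): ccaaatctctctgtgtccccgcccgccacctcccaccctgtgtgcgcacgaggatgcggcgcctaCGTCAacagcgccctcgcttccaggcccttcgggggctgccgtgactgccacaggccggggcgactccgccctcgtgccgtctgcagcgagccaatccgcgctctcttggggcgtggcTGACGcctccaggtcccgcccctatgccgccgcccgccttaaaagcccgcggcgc

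Each of the 6 genes with an entry had at least 1 short CRE in the 250 bases before a start, a match found in 17.77% of 32851 promoters of the same length. *Nr4a1*, *Nr4a2* and *Nr4a3* had 4 each, a number reached by 0.137% of all promoters. In *Nr4a3* the fourth lay beyond the printed stretch. *Rgs2* had 2, and *Per1* had 1 at each of its 2 starts. *Dusp1* had 3, of which 2 overlapped in a full CRE at positions -143 to -136 from the start, and a full CRE was present in 1.546% of all promoters. An E-box, present in 6.021% of all promoters, lay at -126 to -121 from the start of *Dusp1* and at -166 to -161 from the upstream start of *Per1*. The GC content of the 250 bases searched ran from 62% to 80% in these genes, and the comparison with all promoters was not matched for it. The match of letters is a description and not a binding site. No binding was measured in these cells.

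**Figure D1:**
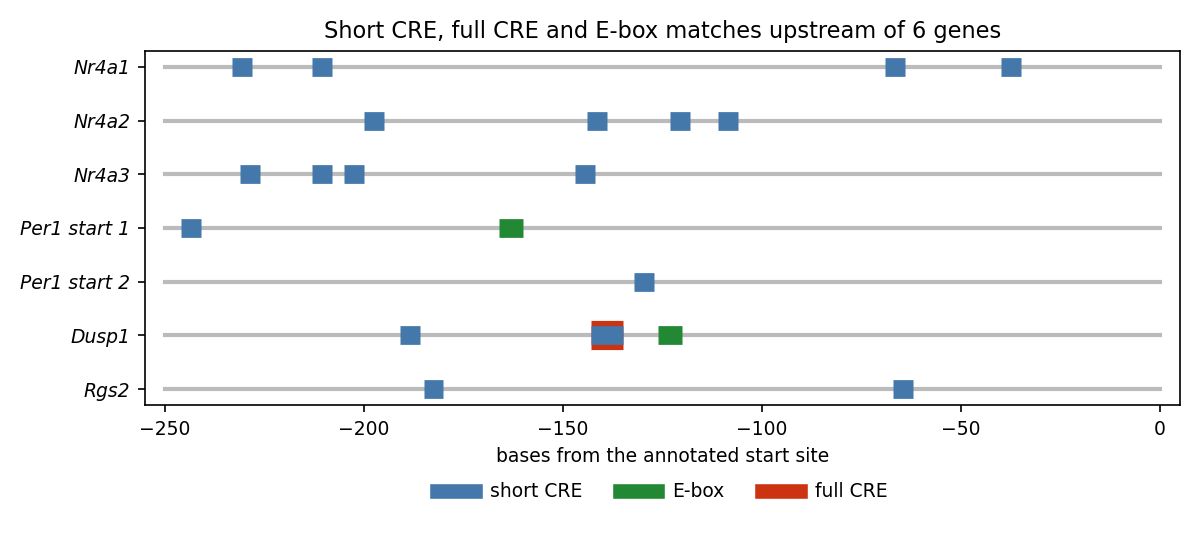
Positions of the short CRE (blue), full CRE (red) and E-box (green) in the 250 bases before each annotated start, with distance from the start in bases on the horizontal axis and 1 line per start (for Per1, start 1 is the upstream and start 2 the downstream start). The 3 Nr4a genes hold 4 short CREs each, and Dusp1 holds the full CRE.

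In GENCODE vM21 on GRCm38, *Nr4a1* (ENSMUSG00000023034.7) lies at chr15:101254269-101274795 on the plus strand and *Nr4a2* (ENSMUSG00000026826.13) at chr2:57106830-57124003 on the minus strand. *Nr4a3* (ENSMUSG00000028341.9) lies at chr4:48045153-48086447 on the plus strand and *Sik1* (ENSMUSG00000024042.7) at chr17:31844250-31855804 on the minus strand. *Per1* (ENSMUSG00000020893.17) lies at chr11:69095217-69109960 on the plus strand, *Dusp1* (ENSMUSG00000024190.7) at chr17:26505590-26562128 on the minus strand and *Rgs2* (ENSMUSG00000026360.9) at chr1:143999338-144004161 on the minus strand. All 7 are protein coding. The *Dusp1* model shares 11 exon bases with *Ergic1* on the other strand, and whether the counting used strand is not given in the sources used here.

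Expression was deposited as FPKM, a fragment count scaled for gene length and library size. Library totals were fitted so that low values, turned back into reads through the exon length, came near whole numbers. The fitted totals were 30.6 to 33.1 M reads for WT and ADPKD but 11.8 and 10.9 M for ADPKD+MMPP. At these totals 98.3% to 99.0% of low values came within 0.05 of a whole number, which the fit sought and which is no separate check. Odd read numbers made up 34.8% to 36.7% of low values in the WT and ADPKD libraries but 7.71% and 7.31% in the ADPKD+MMPP libraries, and the treatment cannot be told apart from whatever set these libraries apart in depth and read numbers. *Pkd1*, the deleted gene, was at 17.7 and 17.2 FPKM in WT, 7.64 and 8.91 in ADPKD and 4.34 and 3.99 in ADPKD+MMPP, which matches the labels in direction. Markers of principal cells of the collecting duct summed to 2079 and 2776 FPKM over 8 genes in WT, 2482 and 942 in ADPKD and 5417 and 5441 in ADPKD+MMPP, where *Aqp2*, the vasopressin-regulated water channel, made up 3555 and 3499. The principal cell marker *Avpr2*, in ADPKD replicate 2, was the only marker of the 9 cell types at 0 in any library. *Avpr2* was near 0 in all groups, at 0.02 and 0.01 FPKM in WT, 0.04 and 0 in ADPKD and 0.06 and 0.03 in ADPKD+MMPP. It did not pass the filter.

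WT cells held all 7 transcripts at high levels. On the FPKM scale, which is per length, *Dusp1* led at 1009.8 ± 44.0 (SD, n = 2), the 10th and 12th highest of 14862 genes in the WT libraries. *Nr4a1* followed at 440.4 ± 19.5, *Per1* at 185 ± 11.2, *Sik1* at 168 ± 26.4, *Rgs2* at 67.0 ± 4.48, *Nr4a2* at 41.7 ± 4.43 and *Nr4a3* at 29.2 ± 1.82. Only *Per1* and *Sik1*, neighbours in this order, overlapped between libraries. In ADPKD the order was *Dusp1*, *Nr4a1*, *Sik1*, *Per1*, *Rgs2*, *Nr4a3* and *Nr4a2*, and the last 3 overlapped one another. In ADPKD+MMPP it was *Sik1*, *Nr4a1*, *Dusp1*, *Rgs2*, *Per1*, *Nr4a2* and *Nr4a3*, with only the leading pair overlapping.

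**Figure D2:**
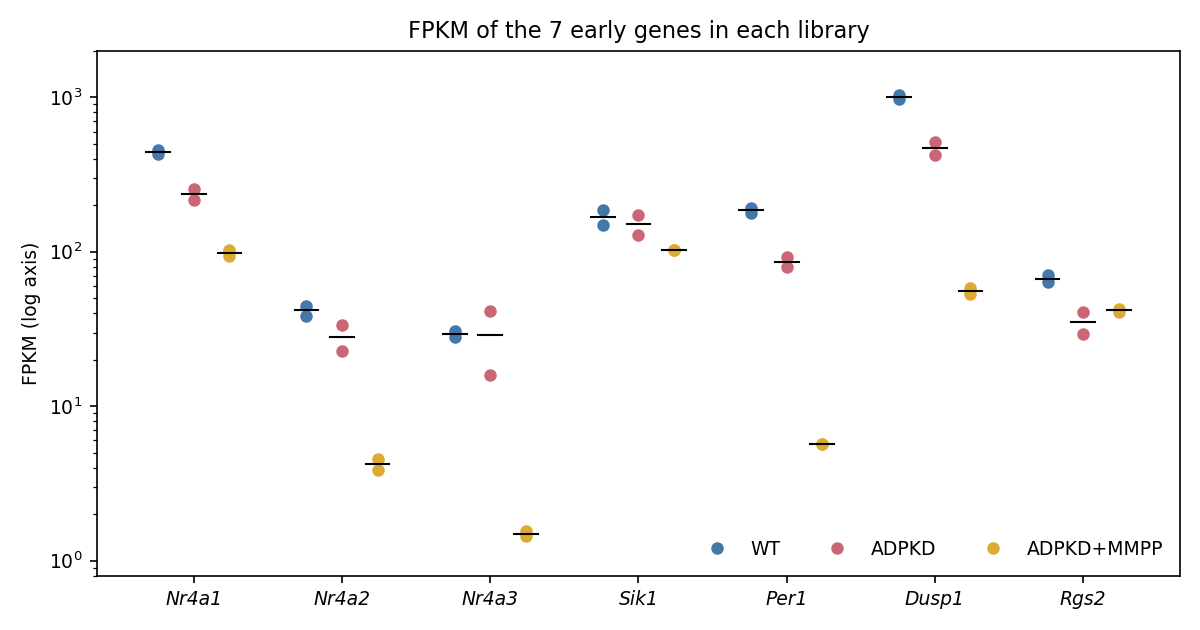
FPKM of each gene on a log axis, with 1 point per library and a bar at the mean of the 2 libraries of WT, ADPKD and ADPKD+MMPP. Dusp1 runs from 1041 FPKM in a WT library to 53.6 in an ADPKD+MMPP library, and the ADPKD+MMPP points of Nr4a2, Nr4a3 and Per1 sit under 6 FPKM.

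The comparison of ADPKD with WT asks what the loss of *Pkd1* did to these genes. 4 of the 7, *Nr4a1*, *Per1*, *Dusp1* and *Rgs2*, fell in ADPKD cells to between 1.87 and 2.16 times less, and none rose, at an unadjusted p under 0.05 either. *Nr4a2*, *Nr4a3* and *Sik1* did not pass the test. Calls required a 1.5-fold difference on the log2(FPKM + 1) scale together with a Benjamini-Hochberg adjusted p under 0.05 over all tested genes in limma. That rule called 22.5% of all genes, 11.9% higher and 10.6% lower. The median log2 change was -0.91 over the 7 genes and 0.03 over all genes tested. Beside a fall in a bulk sample, fewer cells of a type and less RNA per cell cannot be told apart.

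*Nr4a1* had the highest FPKM of the *Nr4a* genes in every library. It was at 454 and 427 FPKM in WT and at 216 and 254 in ADPKD. Both ADPKD libraries lay well under both WT libraries, and the log2 change was -0.91 (SE 0.14, limma with Benjamini-Hochberg adjusted p = 0.00863). *Nr4a2* was at 44.8 and 38.5 FPKM in WT and at 22.8 and 33.5 in ADPKD. The groups did not overlap, but ADPKD replicate 2 lay close under the lower WT library, and the log2 change of -0.57 (SE 0.21) did not pass the test (limma adjusted p = 0.101). *Nr4a3* was at 30.5 and 27.9 FPKM in WT and at 15.8 and 41.6 in ADPKD. ADPKD replicate 1 lay under both WT libraries and replicate 2 above both, with a log2 difference of -0.17 between the groups (95% interval -1.20 to 0.86, limma adjusted p = 0.787).

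*Sik1*, whose kinase phosphorylates CRTC coactivators and so limits the response that induced it, was at 186 and 149 FPKM in WT and at 129 and 172 in ADPKD. The groups overlapped, and the log2 difference was -0.16 (95% interval -0.63 to 0.31, limma adjusted p = 0.571). *Per1* was at 193 and 177 FPKM in WT and at 93.0 and 79.5 in ADPKD. All ADPKD values were under all WT values, with a log2 change of -1.10 (SE 0.13, limma adjusted p = 0.00512).

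*Dusp1* was at 1041 and 979 FPKM in WT and at 513 and 425 in ADPKD. The fall was the largest of the 7 in FPKM, and its log2 change was -1.11 (SE 0.14, limma adjusted p = 0.00571). *Rgs2* was at 63.9 and 70.2 FPKM in WT and at 40.5 and 29.5 in ADPKD, without overlap, and its log2 change was -0.93 (SE 0.18, limma adjusted p = 0.0156). Counting *Nr4a2*, 5 of the 7 genes had ADPKD libraries that all lay under the WT libraries, as 31.5% of all genes did. The number of genes called lower depended on the WT libraries, with 1 of 7 called without WT replicate 1 (*Per1*) and 2 of 7 without WT replicate 2 (*Per1* and *Dusp1*), while the log2 changes of the 4 called genes stayed between -1.25 and -0.71 without any single library. The same held for all genes, where 497 and 529 were called lower without these libraries against 1574 with them.

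**Figure D3:**
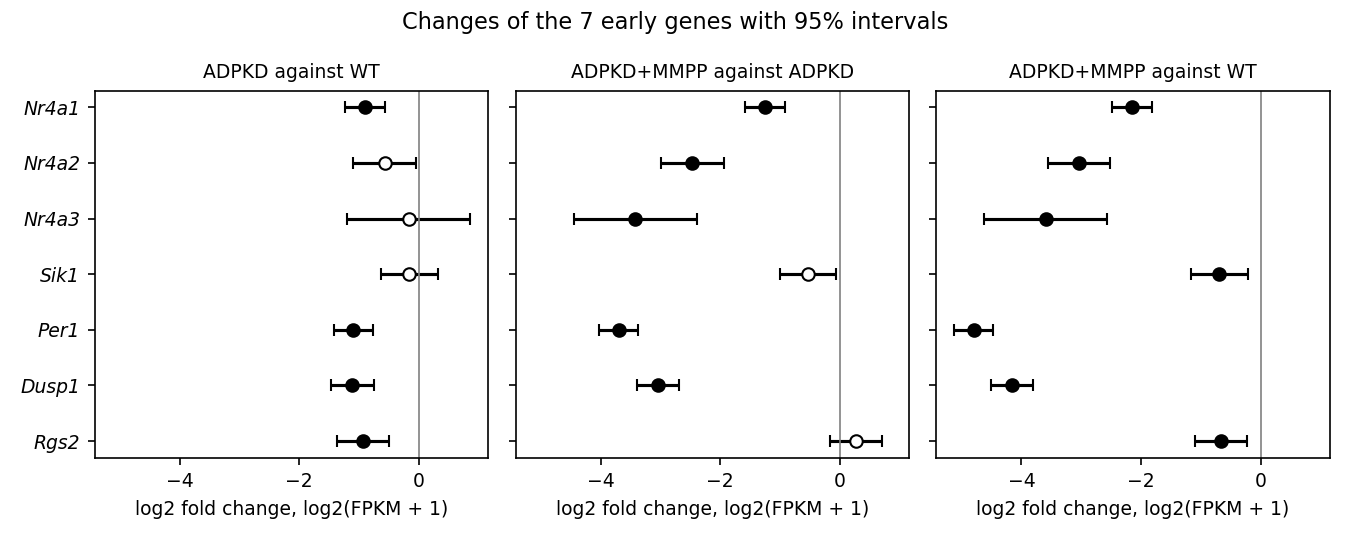
Log2 fold change of each gene on the log2(FPKM + 1) scale with its 95% interval, in 1 panel for each comparison, where filled points passed the test and open points did not. In ADPKD against WT the filled points lie between -1.11 and -0.91, and in ADPKD+MMPP against ADPKD they lie between -3.70 and -1.25.

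The comparison of ADPKD+MMPP with ADPKD asks what treatment did in knockout cells. *Nr4a1*, *Nr4a2*, *Nr4a3*, *Per1* and *Dusp1* fell, from 2.38 times less for *Nr4a1* to 13.0 times less for *Per1*. *Sik1* and *Rgs2* were not called, and no gene was higher at an unadjusted p under 0.05. The background was wide, since 70.3% of all genes were called, 27.7% higher and 42.6% lower, so 5 of 7 lower is to be read against that share. The median log2 change was -2.47 over the 7 genes and -0.36 over all genes tested. With a common sum, TMM factors or quantile normalization the median of all genes lay between -0.55 and 0.10, and the same 5 genes kept their sign and call in each. Centring by how the exons are shared among transcripts ended the calls of *Nr4a1* and *Nr4a2*. When each library's median was kept in that centring, a variant chosen after seeing the data, 6 of the 7 genes were called lower, all but *Nr4a1*. This comparison shares the ADPKD libraries with the previous one, so a low or high ADPKD value enters both with opposite signs.

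*Per1* went from 93.0 and 79.5 FPKM in ADPKD to 5.66 and 5.73 in ADPKD+MMPP, a log2 change of -3.70 (SE 0.13, limma adjusted p = 2.21e-05). *Nr4a3* went from 15.8 and 41.6 FPKM to 1.56 and 1.44, a log2 change of -3.42 (SE 0.41, limma adjusted p = 0.000642) that ranged from -4.09 to -2.75 when single libraries were left out. *Nr4a3* changed more than *Per1* with a pseudocount of 0.1, at -4.01 against -3.89, so the order of these 2 genes is not fixed. The treated *Nr4a3* values rest on 110.0 and 94.0 reads. *Dusp1* went from 513 and 425 FPKM to 58.2 and 53.6, a log2 change of -3.04 (SE 0.14, limma adjusted p = 3.14e-05), and dropped from the 54th and 67th highest of all tested genes to the 1014th and 1110th. The treated libraries lay far under the ADPKD libraries in all 3 genes.

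*Nr4a2* went from 22.8 and 33.5 FPKM to 3.84 and 4.56, a log2 change of -2.47 (SE 0.21, limma adjusted p = 0.000176). *Nr4a1* went from 216 and 254 FPKM to 93.7 and 102, a log2 change of -1.25 (SE 0.14, limma adjusted p = 0.000424). Neither gene had overlapping groups. Since *Nr4a2* and *Nr4a3* fell more than *Nr4a1*, the share of *Nr4a1* in the summed FPKM of the family was 85.8% and 86.5% in WT, 84.8% and 77.2% in ADPKD, and 94.6% and 94.5% in ADPKD+MMPP.

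*Sik1* was at 129 and 172 FPKM in ADPKD and at 103 and 102 in ADPKD+MMPP. Both treated libraries were lower, and the log2 difference of -0.53 (95% interval -1.002 to -0.06, limma adjusted p = 0.0437) was under the fold change that a call needs. *Rgs2* was at 40.5 and 29.5 FPKM in ADPKD and at 40.96 and 42.9 in ADPKD+MMPP. The treated libraries lay just above ADPKD replicate 1, and the log2 difference was 0.27 (95% interval -0.17 to 0.71, limma adjusted p = 0.205), which became -0.03 when libraries were scaled to a common sum, 0.60 with TMM factors and -0.57 (adjusted p = 0.0182) when centred by how exons are shared among transcripts. Counting *Sik1*, 6 of the 7 genes had treated libraries that all lay under the ADPKD libraries, as 51.7% of all genes did.

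The order of the changes after MMPP followed a feature of the gene models. This feature, the percent of exon bases covered by a single annotated transcript, was 4.56% in *Nr4a3*, 5.51% in *Per1*, 7.79% in *Nr4a2*, 29.4% in *Nr4a1*, 35.5% in *Dusp1*, 58.8% in *Sik1* and 79.0% in *Rgs2*. The genes with the smallest shares had the most negative changes, apart from *Dusp1*, which changed more than its share ranks it. Across the 12375 protein-coding genes tested, this share and the log2 change after MMPP had a Spearman rho of 0.649, against 0.0451 for ADPKD against WT, where genes of 1 library share depth and annotation and are not independent replicates. Genes of similar share had a median log2 change after MMPP of -1.69 around *Nr4a2*, *Nr4a3* and *Per1*, -1.18 around *Nr4a1*, -0.997 around *Dusp1*, -0.16 around *Sik1* and 0.82 around *Rgs2*. *Nr4a1*, at -1.25, was near the median of its neighbours, whereas *Dusp1*, at -3.04, *Per1*, at -3.70, and *Nr4a3*, at -3.42, lay well under theirs, and *Rgs2*, at 0.27, lay under its own. When libraries were centred within bins of this share, 3 of the 7 genes were called lower, *Per1* at -1.59 in place of -3.70, *Nr4a3* at -1.31 in place of -3.42 and *Dusp1* at -1.91 in place of -3.04. *Nr4a2* was then at -0.36 (limma adjusted p = 0.167) and *Nr4a1* at 0.23 (limma adjusted p = 0.196). Such centring also takes out each library's median. With that median kept, 6 of the 7 genes were called lower, all but *Nr4a1*. The libraries in which the change followed the exon share are those with few odd read numbers, so that pattern and the treatment cannot be told apart.

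**Figure D4:**
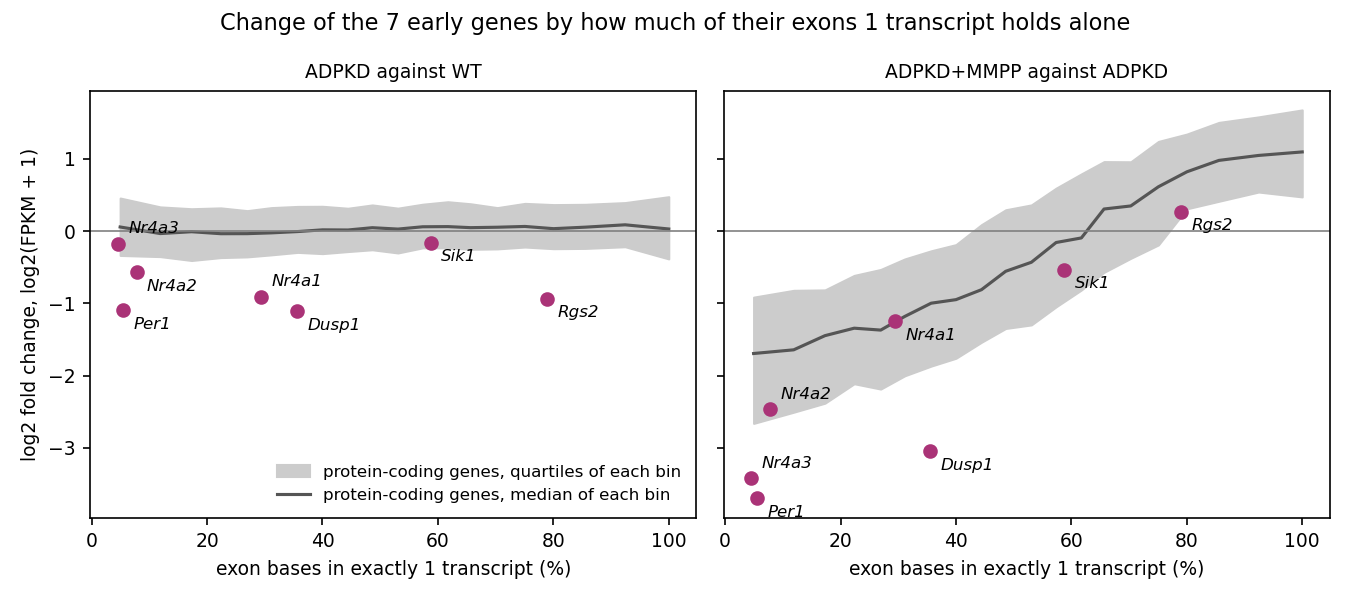
Log2 fold change of the 7 genes (points) against the percent of their exon bases held by a single annotated transcript, with the median (line) and quartiles (grey) of protein-coding genes in bins of that percent, for ADPKD against WT and for ADPKD+MMPP against ADPKD. The line is flat near 0 on the left and rises from -1.69 at the left edge of the right panel, where Nr4a1 lies on the line and Per1, Nr4a3 and Dusp1 lie under the grey band.

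Against WT, all 7 genes were lower in ADPKD+MMPP, where 73.4% of all genes were called, 29.9% higher and 43.5% lower. The log2 changes were -4.80 (SE 0.13) for *Per1*, -4.15 (SE 0.14) for *Dusp1*, -3.59 (SE 0.41) for *Nr4a3*, -3.04 (SE 0.21) for *Nr4a2* and -2.16 (SE 0.14) for *Nr4a1*, with limma adjusted p between 1.47e-05 and 0.000473. *Sik1* fell by 0.69 (SE 0.19, limma adjusted p = 0.0167) and *Rgs2* by 0.66 (SE 0.18, limma adjusted p = 0.0143) on the log2 scale. With TMM factors these 2 genes no longer passed, at -0.38 (adjusted p = 0.122) and -0.36 (adjusted p = 0.0918). Centred by the exon feature, the changes against WT were smaller for *Nr4a1*, at -0.75, and *Nr4a2*, at -1.06, both still called. The treated libraries of all 7 genes lay under the WT libraries, as those of 53% of all genes did, and the medians were -3.04 over the 7 genes and -0.36 over all genes. *Nr4a1*, *Per1* and *Dusp1* were called lower at both steps, from WT to ADPKD and from ADPKD to ADPKD+MMPP, as were 4.34% of all genes tested, and the steps share the ADPKD libraries.

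The close relatives did not all follow. *Per2*, which forms the clock repressor with PER1, was at 33.8 and 33.8 FPKM in WT, 26.5 and 33.7 in ADPKD and 35.6 and 33.3 in ADPKD+MMPP, and was not called in any comparison. *Per1* therefore made up 84.6% and 83.5% of the summed *Per1*, *Per2* and *Per3* FPKM in WT, 77.3% and 68.8% in ADPKD, and 13.6% and 14.5% in ADPKD+MMPP. *Per3* was low, at 1.38 and 1.34 FPKM in WT, 0.91 and 2.30 in ADPKD and 0.37 and 0.52 in ADPKD+MMPP, and was called lower after MMPP (log2 change -0.80, limma adjusted p = 0.0323). The exon share of *Per2* was 96.4%, far from the 5.51% of *Per1*.

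*Sik2* and *Sik3*, the constitutive SIK kinases, were at 4.05 and 4.29 FPKM and at 19.7 and 20.1 FPKM in WT, so *Sik1* held 88.7% and 85.9% of the summed FPKM of the 3 kinases there. Neither was called in ADPKD against WT, and both were called lower after MMPP, with log2 changes of -1.76 and -1.92. *Sik1* then held 95.8% and 96.2%. Of the 11 tested kinases, activators and substrates of the SIK pathway, 1 fell and 0 rose in ADPKD, 8 fell and 0 rose after MMPP, and 8 fell and 0 rose in ADPKD+MMPP against WT. In the last pair of comparisons 42.6% and 43.5% of all genes were called lower, and the list median after MMPP was -1.76 on the log2 scale. The 8 genes that fell after MMPP had a median exon share of 39.3%, and the 3 not called 70.8%. *Stk11*, the kinase LKB1 that activates SIKs, went from 32.8 and 35.0 FPKM in ADPKD to 5.44 and 4.64, and the CREB coactivator *Crtc2*, a SIK substrate, from 34.7 and 43.4 to 3.81 and 5.24. The histone deacetylases *Hdac5*, at 21.3 and 18.9 FPKM in ADPKD, and *Hdac7*, at 24.4 and 25.2, are SIK substrates too and went to 1.84 and 1.72 and to 2.03 and 1.93.

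Other cAMP-induced genes divided after MMPP. Of 21 tested, 9 fell and 2 rose in ADPKD against WT, 7 fell and 9 rose in ADPKD+MMPP against ADPKD, and 10 fell and 4 rose in ADPKD+MMPP against WT, with median log2 changes of -0.54, -0.09 and -0.15. For all genes the calls were 10.6% lower and 11.9% higher in ADPKD, 42.6% and 27.7% after MMPP, and 43.5% and 29.9% against WT. The 9 that rose after MMPP had a median exon share of 100% and the 7 that fell 30.1%. *Junb* and *Fos*, subunits of the AP-1 transcription factor, fell in ADPKD and rose after MMPP. *Junb* was at 2432 and 2372 FPKM in WT, 1221 and 910.3 in ADPKD and 2805 and 2837 in ADPKD+MMPP, and *Fos* at 1907 and 2120.2, 953 and 604, and 2229 and 2253. The treated libraries thus lay above both other groups for these genes, whose exon shares were 100% and 63.5%. Neither gene passed the test in ADPKD+MMPP against WT (log2 changes 0.23 and 0.16, limma adjusted p = 0.240 and 0.548). *Fosb* and *Atf3*, a further AP-1 subunit and a stress-induced transcription factor, fell after MMPP with log2 changes of -2.28 and -1.06. *Crem*, which encodes the cAMP-induced repressor ICER among its many transcripts, was at 6.75 and 8.04 FPKM in WT, 4.05 and 4.98 in ADPKD and 3.20 and 4.37 in ADPKD+MMPP, and was called only in ADPKD+MMPP against WT (log2 change -0.82, limma adjusted p = 0.00689). The ICER transcripts cannot be separated from the others in gene values.

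**Figure D5:**
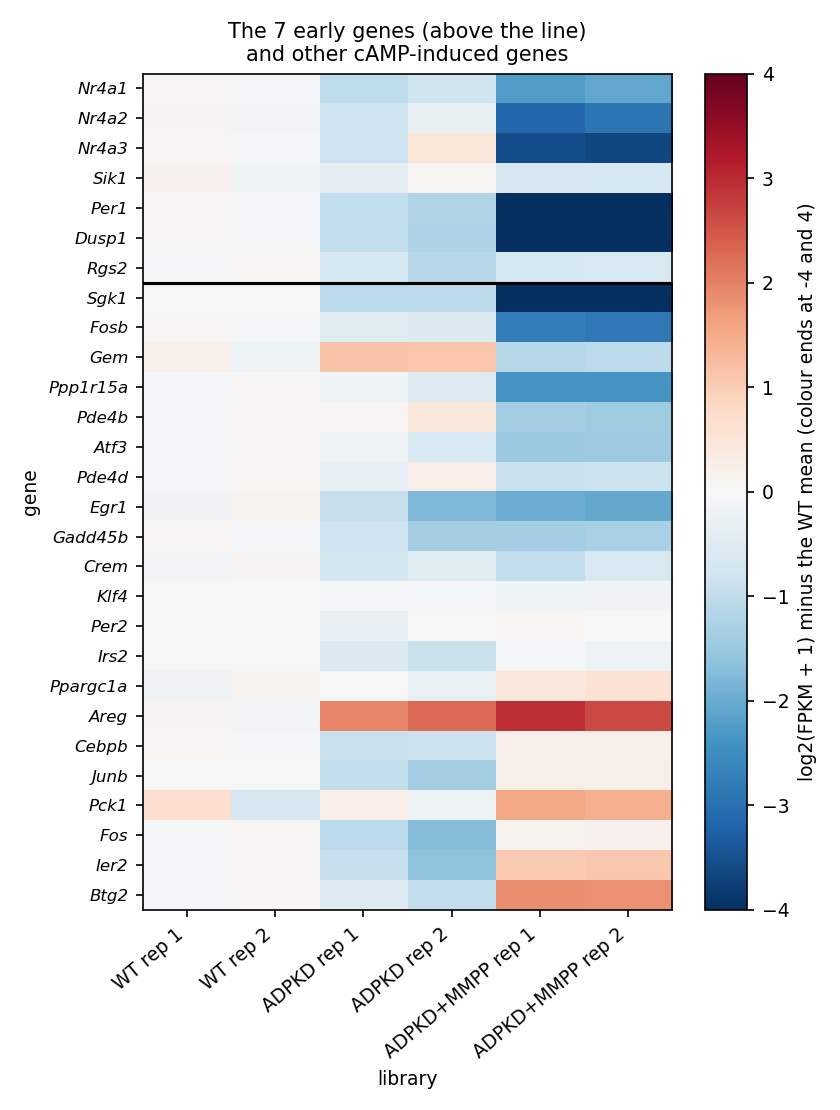
Log2(FPKM + 1) of the 7 genes and of 21 other cAMP-induced genes in each of the 6 libraries, minus the WT mean, with colours ending at -4 and 4 and the other genes ordered by their change after MMPP. Nr4a1, Nr4a2, Nr4a3, Per1 and Dusp1 are blue in the treated columns, whereas Sik1 and Rgs2 are only pale blue there. Junb and Fos, near the bottom, are close to white in the treated columns and light blue in the ADPKD columns.

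Lists around *Dusp1* and *Rgs2* were mixed as well. They are to be read against all genes, of which 11.9% rose and 10.6% fell in ADPKD and 27.7% and 42.6% after MMPP. In ADPKD+MMPP against WT the shares were 29.9% and 43.5%. Of 9 other MAP kinase phosphatases, 1 rose and 1 fell in ADPKD, 4 rose and 2 fell after MMPP, and 6 rose and 2 fell in ADPKD+MMPP against WT. *Dusp6*, specific for ERK, moved as *Dusp1* did, from 124 and 116 FPKM in WT to 72.7 and 64.8 in ADPKD and 15.4 and 16.9 in ADPKD+MMPP, whereas the nuclear phosphatase *Dusp2* rose from 5.83 and 4.97 to 14.7 and 28.1 and then to 110.1 and 103. The exon share was 10.7% in *Dusp6* and 81.5% in *Dusp2*. The 4 phosphatases called higher after MMPP had a median exon share of 91.9%, and the 2 called lower 23.6%. Of the 5 MAP kinases, 0 were called in ADPKD, 4 fell after MMPP and 3 fell in ADPKD+MMPP against WT, and *Mapk3*, the ERK1 kinase, went from 55.6 and 49.6 FPKM in ADPKD to 0.38 and 0.49. *Mapk3* had an exon share of 20.2%. The 4 MAP kinases that fell after MMPP had a median exon share of 25.1%, and the 1 not called 62.6%. Of 5 tested relatives of *Rgs2* among the 8 other R4 RGS genes listed, 2 rose and 1 fell in ADPKD, 1 rose and 3 fell after MMPP, and 2 rose and 2 fell in ADPKD+MMPP against WT. The 3 that fell after MMPP had a median exon share of 32.9%, the 1 that rose 94% and the 1 not called 100%. *Rgs16*, which acts on G proteins too, rose in ADPKD and was at 10.01 and 7.26 FPKM in WT and 25.9 and 51.5 in ADPKD. Of the 3 Gq class alpha subunits on which RGS2 acts or could act, 1 rose and 1 fell in ADPKD, and 2 rose and 0 fell after MMPP and against WT. *Gnaq* went from 23.9 and 21.2 FPKM in WT to 15.1 and 13.8 in ADPKD and 30.6 and 32.4 in ADPKD+MMPP.

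Of 15 circadian clock genes, 3 fell and 0 rose in ADPKD, 5 fell and 3 rose after MMPP, and 7 fell and 3 rose in ADPKD+MMPP against WT. Among all genes the shares called lower were 10.6%, 42.6% and 43.5%, and those called higher 11.9%, 27.7% and 29.9%. The 5 clock genes that fell after MMPP had a median exon share of 45.98%, the 3 that rose 61.95% and the 7 not called 82.1%, the highest. *Cry2*, a clock repressor that partners PER proteins, fell at both steps, from 45.2 and 44.2 FPKM in WT to 27.0 and 30.7 in ADPKD and 10.6 and 10.4 in ADPKD+MMPP, with an exon share of 71.6%. *Nr1d1*, the repressor REV-ERB alpha, fell in ADPKD by 0.67 on the log2 scale (limma adjusted p = 0.0181). Others rose, *Dbp* after MMPP with a log2 change of 1.38 and *Bhlhe40* in ADPKD+MMPP against WT with 0.67. The hour of collection is not given in the sources used here, and its part in the *Per1* values was not tested. Of 2 tested partners of NR4A receptors among 3 retinoid X receptors, 0 were called in ADPKD and 1, *Rxrb*, fell after MMPP and against WT.

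*Per1* and *Dusp1* also answer to glucocorticoids, and early genes answer to tissue digestion, so genes of both responses were read beside the members. The share of all genes called lower was 10.6% in ADPKD, 42.6% after MMPP and 43.5% in ADPKD+MMPP against WT. The shares called higher were 11.9%, 27.7% and 29.9%. Of 6 glucocorticoid-induced genes, 2 fell and 0 rose in ADPKD, 1 fell and 2 rose after MMPP, and 4 fell and 0 rose in ADPKD+MMPP against WT. *Sgk1*, a kinase of sodium transport that is also induced by cAMP, went from 362.5 and 375 FPKM in WT to 173 and 176 in ADPKD and 4.66 and 4.11 in ADPKD+MMPP. Its exon share was 30.1%. Of 20 genes of the cell dissociation response, 8 of them also counted among the cAMP-induced genes, 9 fell and 0 rose in ADPKD, 12 rose and 5 fell after MMPP, and 8 rose and 8 fell in ADPKD+MMPP against WT. Those called higher after MMPP had a median exon share of 100% and those called lower 39.6%. *Jun* was at 1544 and 1695 FPKM in WT, 935.5 and 665 in ADPKD and 1867 and 1952 in ADPKD+MMPP. The dissociation genes that fell in ADPKD moved with *Nr4a1*, *Per1* and *Dusp1* there, and their part in those changes was not tested.

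Markers of several cell types moved with the groups. For comparison, 11.9% of all genes were called higher and 10.6% lower in ADPKD, and 27.7% and 42.6% after MMPP. In ADPKD against WT, 4 of 4 podocyte, 6 of 6 intercalated cell, 5 of 6 endothelial and 4 of 5 smooth muscle and pericyte markers fell, 1 endothelial marker rose, and 7 of 7 macrophage, 3 of 4 fibroblast and 3 of 10 proximal tubule markers rose. The 7 principal cell markers tested and the 4 thick limb and distal tubule markers gave 0 calls there. Macrophage markers summed to 64.8 and 65.6 FPKM in WT, 482 and 577 in ADPKD and 1057 and 1108 in ADPKD+MMPP, and endothelial markers to 837 and 688, 509 and 517, and 309 and 339. The macrophage sum hides opposite calls after MMPP, when 3 of its 7 markers rose and 4 fell. Podocyte markers summed to 872 and 1187 FPKM in WT and to 199 and 86.8 in ADPKD. After MMPP, 7 of 10 proximal tubule markers rose and their sum went from 646 and 99.5 FPKM in ADPKD to 13553 and 12835, mostly *Kap*, without which it went from 137 and 35.5 to 731 and 719. Of the other lists after MMPP, 5 of 6 intercalated, 4 of 7 principal, 2 of 5 smooth muscle and pericyte and 1 of 4 fibroblast markers rose. In the same comparison 2 of 7 principal, 3 of 6 endothelial, 3 of 5 smooth muscle and pericyte, 2 of 4 fibroblast and 2 of 4 podocyte markers fell, and 0 of 4 thick limb and distal tubule markers were called. Among principal cell markers, *Aqp2*, *Scnn1g* and *Hsd11b2* rose at an exon share of 100% and *Aqp3* at 81.6%. Those that fell were *Scnn1b*, at 7.37%, and *Aqp4*, at 75.8%. The early genes are expressed by many cell types, and the part of cell types in their changes was not tested. The part of the exon feature in the marker calls after MMPP was not tested either.

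The mean profile of the 7 genes, each scaled to its own mean and spread over the libraries, was highest in WT (0.97 and 0.83), near 0 in ADPKD (0.10 and 0.28) and lowest in ADPKD+MMPP (-1.11 and -1.07). *Rgs2* departed from this average, since its lowest group was ADPKD and its Pearson's r with the other genes over the 6 libraries was 0.18 to 0.56, against 0.88 to 0.999 among those. Among 8709 protein-coding genes with a mean of at least 5 FPKM in a group, the 5 whose log2(FPKM + 1) correlated best with this profile over the 6 libraries were *Eva1b* (Pearson's r = 0.999), *Bmi1*, *Gtf2e2*, *Dgkz* and *Cry2* (r = 0.998 each). The 6 points fall into 3 groups of 2 that share depth within the group. The exon share was 26.4% in *Eva1b*, 26.1% in *Bmi1*, 28.3% in *Gtf2e2*, 28.5% in *Dgkz* and 71.6% in *Cry2*. Its part in these correlations was not tested. *Dgkz*, a lipid kinase, went from 27.3 and 26.5 FPKM in WT to 13.9 and 14.4 in ADPKD and 3.61 and 3.61 in ADPKD+MMPP, and *Bmi1*, a Polycomb component, from 18.1 and 16.5 to 11.1 and 11.7 and then 5.46 and 5.17.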

How the data were processed

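RNA-seq (Illumina) was read from DBA-positive kidney cells, 2 libraries for each of WT, ADPKD and ADPKD+MMPP on day 115. The authors aligned reads to GRCm38/mm10 with HISAT2 2.1.0 and counted them with featureCounts 1.6.0, and the submitters' processing notes name the same tools. The deposited values are FPKM per gene symbol. The annotation release and the step from counts to FPKM are not given in the sources used here. The authors tested counts with a count model, which FPKM do not allow.

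Of 55367 symbols, 53186 matched 1 gene of GENCODE vM21. Genes needed an FPKM of 1 or more in 2 or more libraries, which left 14862. Values were put on the log2(FPKM + 1) scale and fitted once over the 6 libraries (limma 3.58.1, R 4.3.3), and calls needed a 1.5-fold difference and a Benjamini-Hochberg adjusted p under 0.05. This scale understates the change of low genes, and with 2 libraries a group the spread is shared over groups. Depth came from read steps, and counting error was not modelled. Python 3.11.15 was used for the lists and promoters, and the limma fit was tested on simulated data.

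The 7 genes and all lists were chosen with earlier results of these data known. Named besides the 7 were, in each pathway list, up to 4 genes of highest mean FPKM among those called in any comparison, *Crem*, *Sik2*, *Sik3*, *Per2* and *Per3* whatever their values, the 5 most alike genes, and *Pkd1*. Lists were described by counts and medians only. Alternatives changed the pseudocount, filter, scaling, fit, fold change, exon-share centring and replicate block, and left out each library. Replicate correlations of log2(FPKM + 1) across genes were 0.984, 0.958 and 0.992, and no gene above 0 had identical FPKM in both libraries of a group.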

Additional observations from a re-analysis of the deposited data

How the results depend on the processing

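The log2 changes of *Nr4a2*, *Nr4a3*, *Per1* and *Dusp1* after MMPP were negative under every alternative run, but their sizes moved, most under centring by exon share. With 2 libraries a group, single libraries decided several calls. At a fold change of 2, only 2 of the 7 genes were called lower in ADPKD against WT, since *Nr4a1* (-0.91) and *Rgs2* (-0.93) lay short of it, as did *Sik1* (-0.69) and *Rgs2* (-0.66) in ADPKD+MMPP against WT. Leaving out 1 library at a time gave 1 to 6 genes lower in ADPKD against WT, 5 to 6 lower after MMPP and 5 to 7 lower against WT. The ranges of the log2 change in ADPKD against WT were -1.02 to -0.79 for *Nr4a1*, -0.84 to -0.30 for *Nr4a2*, -0.84 to 0.50 for *Nr4a3* (0.50 without ADPKD replicate 1), -0.37 to 0.0496 for *Sik1* (0.0013 without WT replicate 1, 0.0496 without ADPKD replicate 1), -1.25 to -0.97 for *Dusp1* and -1.15 to -0.71 for *Rgs2*. They were -0.74 to -0.32 for *Sik1* after MMPP, and -0.85 to -0.53 for *Sik1* and -0.73 to -0.60 for *Rgs2* in ADPKD+MMPP against WT.

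After MMPP, *Sik1* was at -0.84 with a common sum and -0.81 with quantile normalization, both called. *Rgs2* was at 0.60 with TMM factors, which made it the 1 gene called higher, and at -0.031 with a common sum. With TMM factors *Sik1* (-0.38) and *Rgs2* (-0.36) were not called against WT. Of all genes called after MMPP, 39.4% were higher, and 31.8%, 47.2% and 53.9% were with a common sum, TMM factors and quantile normalization. Centred by exon share, 3 of the 7 were called lower after MMPP, *Per1* (-1.59), *Nr4a3* (-1.31) and *Dusp1* (-1.91), with *Nr4a1* at 0.23, *Nr4a2* at -0.36 and *Rgs2* at -0.57, *Nr4a2* was at -0.70 in ADPKD against WT and called, and *Sik1* was at -0.28 against WT. With the library median kept, a variant chosen after seeing the data, *Nr4a2* was at -0.67 in ADPKD against WT, and *Nr4a1* was at -0.32, *Sik1* at -0.60 and *Rgs2* at -1.13 after MMPP, the last pair called, which made 6 of 7 lower. Only *Nr4a1* was not called after MMPP in that variant, so the loss of the *Nr4a2* call depended on taking out the median. Centring was run on the 12375 protein-coding genes, of which it called 2991 lower after MMPP against 5178 uncentred, and 3295 against 5280 in ADPKD+MMPP against WT. Plain centring also takes out each library's median. With that median kept, 5252 were called lower after MMPP and 5178 against WT. The numbers called higher after MMPP were 3676 uncentred, 4140 with plain centring and 2115 with the median kept. A fold change of 2 brought the genes called in ADPKD against WT to 943 higher and 869 lower against 1775 and 1574. The cause was not tested.

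A replicate block left 4, 5 and 7 genes called lower and changed no call of the 7. Same-numbered libraries deviated together with correlations of 0.129, 0.01 and -0.01 over the pairs of groups. With 2 libraries a group, these values cannot decide whether the numbers pair the libraries. Leaving out WT replicate 1 or 2 brought the genes called higher in ADPKD to 571 and 586.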
